A study of Mus musculus with 20 samples.

Results

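Interferon-stimulated genes were read in the hearts of old mice that had eaten rapamycin, an inhibitor of the kinase mTOR, and in hearts of mice on a control diet. The list held 38 symbols: 31 antiviral genes of the type I interferon response and 7 GTPases known to be induced by interferon gamma. Of these, 36 were among the 34291 rows of the count table, 30 antiviral genes and 6 GTPases, and all 36 passed the filter on low counts, which left 13940 genes tested. Ifi27 and Gbp7 were not among the row names and were not analysed here. The rapamycin group was 10 C57BL/6 mice given food with 14 ppm rapamycin for 3 months, and the control group was 10 C57BL/6 mice given the control food for the same time. Feeding began at 24 months of age, and both groups were 27 months old when the whole heart was frozen, so every level below is that of an aged heart. No younger hearts were part of the comparison. Libraries were made from polyadenylated RNA and are called by their numbers in the sample titles.

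Interferons are signalling proteins released when a cell senses viral or misplaced nucleic acid. Type I interferons act through the receptor of Ifnar1 and Ifnar2 and the kinases Jak1 and Tyk2, and a complex that holds Stat2 and Irf9 then binds the interferon-stimulated response element (ISRE) near antiviral genes. Interferon gamma, made mainly by T and NK cells, acts through Ifngr1, Ifngr2, Jak1 and Jak2, and leads to binding at gamma-activated sites (GAS), which induces Irf1 and the GBP and IRG families of GTPases. Many genes answer to both kinds of interferon, so the split of the list is one of emphasis. Most laboratory C57BL/6 mice carry an Mx1 allele that gives no working protein, so Mx1 is read here as a transcript only.

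The promoter sequences show which of the 2 elements the listed genes carry. Windows of 300 bases, 250 before and 50 after the annotated start, came from RefSeq on GRCm38.p6. They were found for 27 of the 36 genes, 22 antiviral genes and 5 GTPases. Mx1, Mx2, Dhx58, Zbp1, Usp18, Oas2, Parp14, Rtp4 and Iigp1 had no window, so the motif results do not cover them. The ISRE core was searched as GAAA, any 2 bases, GAAA, and the GAS as TTCNNNGAA. Both strands were read, and the GAS reads the same on either. Each matched stretch counts also where it overlaps another. An ISRE core was present in a window of 12 of the 22 antiviral genes (54.5%) and of 5 of the 5 GTPases, against 3.99% of 27025 genes with a window. A GAS was present in a window of 7 of the 22 antiviral genes (31.8%) and of 2 of the 5 GTPases (40.0%), against 9.55% of all. A match describes the letters and does not show that a factor binds there.

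Stretches of antiviral promoters are shown to compare the number and the place of the motifs, with all motif bases in capitals. The 60 bases of Isg15 are chr4:156200857-156200916 (minus strand), those of Ifit1 chr19:34640769-34640828 (plus strand), those of Bst2 chr8:71537569-71537628 (minus strand) and those of Irf1 chr11:53769898-53769957 (plus strand). The 250 bases of Oas1a are chr5:120907526-120907775 (minus strand) and end at the base before the start. All are written 5′ to 3′ on the strand of the gene.
Isg15: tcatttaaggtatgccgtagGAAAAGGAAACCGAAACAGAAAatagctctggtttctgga
Ifit1: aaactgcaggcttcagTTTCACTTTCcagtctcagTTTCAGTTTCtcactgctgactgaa
Bst2: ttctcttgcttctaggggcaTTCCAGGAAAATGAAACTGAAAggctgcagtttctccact
Irf1: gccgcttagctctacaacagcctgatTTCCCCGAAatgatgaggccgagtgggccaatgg
Oas1a: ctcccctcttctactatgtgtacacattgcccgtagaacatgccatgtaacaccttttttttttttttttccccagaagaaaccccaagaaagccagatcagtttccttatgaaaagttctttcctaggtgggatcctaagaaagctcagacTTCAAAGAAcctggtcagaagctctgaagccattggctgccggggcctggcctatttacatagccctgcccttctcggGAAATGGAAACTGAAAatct
Isg15 holds 3 overlapping ISRE cores, and Ifit1 holds 2 separate ones that appear as TTTC repeats because they lie on the other strand. Bst2 has a GAS that runs into 2 overlapping ISRE cores. Irf1, a gene of the gamma response as much as of the antiviral one, has a GAS and no ISRE core in this stretch. Oas1a has 2 overlapping ISRE cores that begin 20 and 14 bases before the start and a GAS that begins 98 bases before it.

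The GTPase promoters are shown because all 5 genes held an ISRE core although these genes are known for their answer to interferon gamma. The 60 bases of Gbp2 are chr3:142620578-142620637 (plus strand), those of Irgm1 chr11:48871421-48871480 (minus strand) and those of Irgm2 chr11:58214882-58214941 (plus strand). The 250 bases of Igtp, which lies next to Irgm2 on chromosome 11, are chr11:58199306-58199555 (plus strand).
Gbp2: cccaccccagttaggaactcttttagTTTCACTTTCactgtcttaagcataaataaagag
Irgm1: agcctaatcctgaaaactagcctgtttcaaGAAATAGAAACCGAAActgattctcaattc
Irgm2: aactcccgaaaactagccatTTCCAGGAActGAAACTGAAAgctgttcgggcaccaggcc
Igtp: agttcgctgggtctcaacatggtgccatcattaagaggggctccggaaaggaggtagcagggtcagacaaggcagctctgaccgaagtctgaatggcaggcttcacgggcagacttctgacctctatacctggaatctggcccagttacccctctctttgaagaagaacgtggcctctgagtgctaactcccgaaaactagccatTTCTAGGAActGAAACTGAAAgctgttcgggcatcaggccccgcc
Igtp and Irgm2 share 1 GAS followed by 1 ISRE core, and over 60 bases around the motifs their promoters differ at 2 positions. Gbp2 and Irgm1 hold ISRE cores without a GAS in these stretches. The promoters of the 2 groups of genes thus overlap in the elements they hold.

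**Figure D1:**
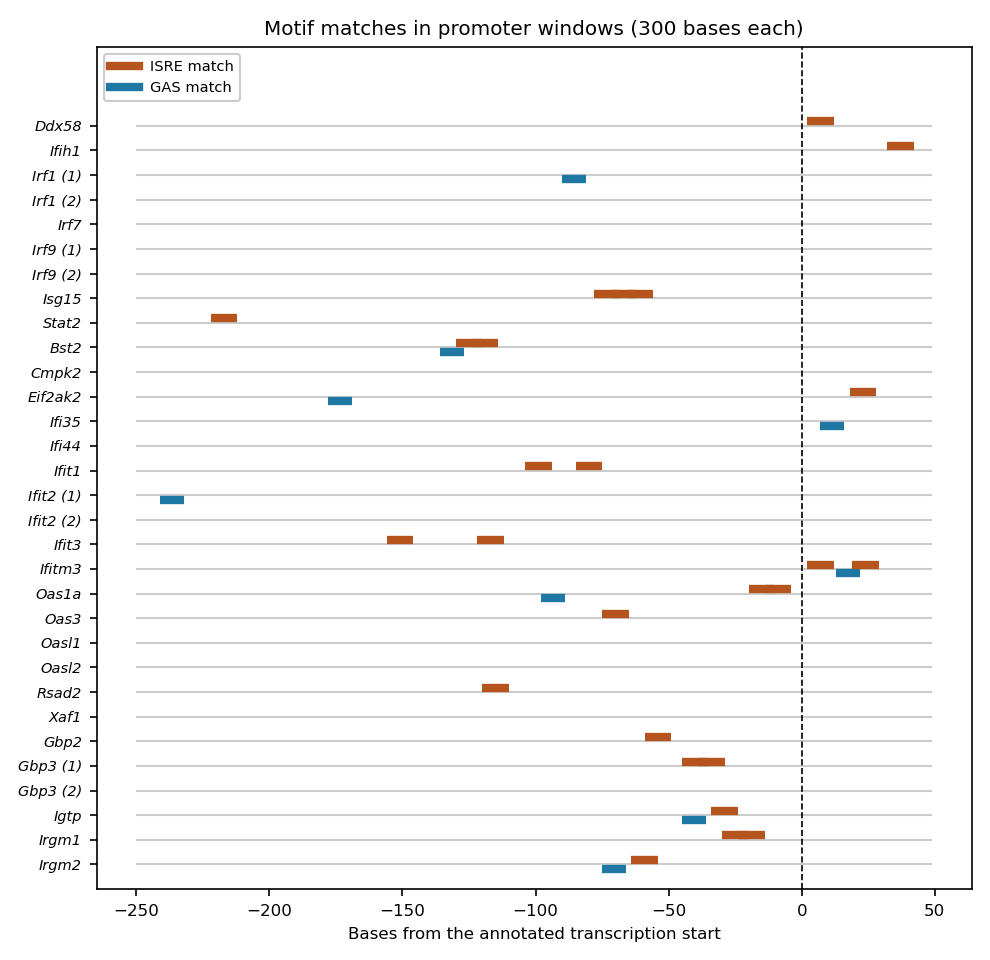
Places of ISRE and GAS matches in the promoter windows of the listed genes, by role, with bases from the annotated start on the x axis. A gene with more than 1 annotated start has a numbered line for each. ISRE matches lie in a window of each of the 5 GTPases and of 12 of the 22 antiviral genes with a window.

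Total counts ranged between 8525162 and 12458309 in rapamycin libraries and between 7039514 and 10594335 in control libraries. The tissue label was met by high levels of cardiomyocyte genes, with the cardiac myosin Myh6 at a median of 21403 normalised CPM in rapamycin hearts and 15682 in control hearts. The library of control 19 stood apart, with 28091 summed CPM of 5 lung genes, against a median of 1.70 over the other 9 controls and 1.43 over the rapamycin libraries. It also held the lowest cardiomyocyte marker sum and the highest macrophage marker sum, of which the lysozyme gene Lyz2, also expressed in lung, made up 2972 of 3685 normalised CPM. Without Lyz2 its macrophage sum was 712, below those of controls 2, 11 and 13. For these reasons results are given with and without it. Control 1, rapamycin 15 and control 20 held 363, 126 and 64.2 summed CPM of the lung genes. Over all genes 373 fell and 96 rose with rapamycin (edgeR adjusted p under 0.05), and 325 fell and 147 rose without control 19.

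One of the 36 genes passed the test over all genes: Mx1 fell with rapamycin, and 0 of the 36 rose. Over all genes tested, 2.68% fell and 0.689% rose, so a count of 1 in 36 is close to the background. The direction was shared more widely than the calls, since 35 of 36 log2 fold changes lay below 0, against 52.5% of all genes tested. At an unadjusted p under 0.05, 14 of the 30 antiviral genes and 0 of the 6 GTPases were lower in rapamycin hearts, against 13.5% of all genes. The median log2 fold change was -0.30 for the antiviral genes, -0.28 for the GTPases and -0.01 for all genes tested. Without control 19 Mx1 was again the 1 gene that fell, against a background of 2.33%, and 35 of 36 values lay below 0, against 48.6%. The antiviral count at an unadjusted p under 0.05 was then 10, the GTPase count 0 and the background 10.5%, with medians of -0.24 and -0.28. The 2 groups of genes thus had like medians, and no test of a difference between them was run. The list was chosen with earlier results of these data known, so the shares beside it are description.

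**Figure D2:**
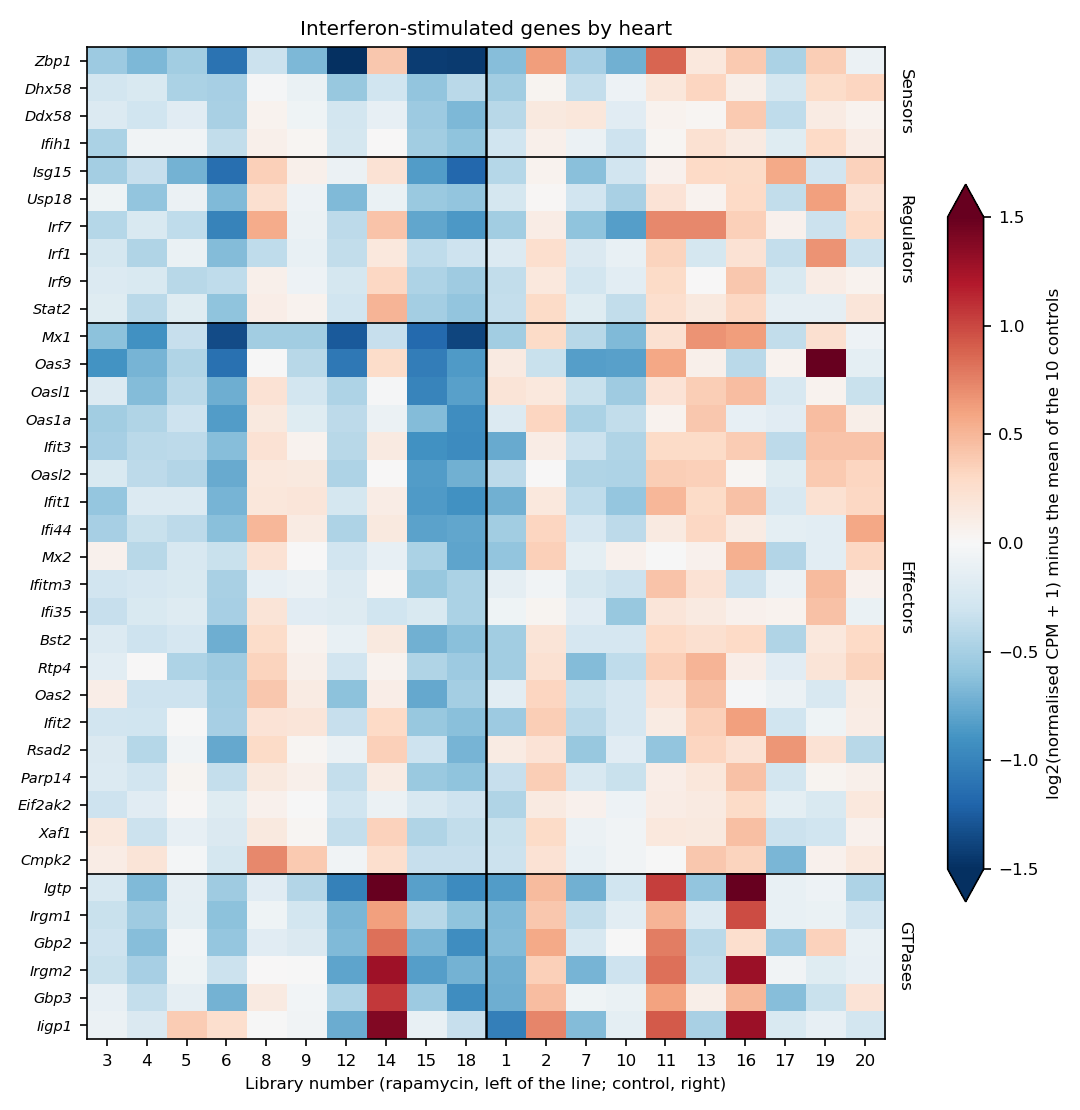
Levels of the 36 genes in each heart as log2(normalised CPM + 1) minus the mean of the 10 controls, rapamycin libraries left of the line and control libraries right. Rapamycin 18, 15 and 6 are low across most rows, and rapamycin 8 and 14 are high in many. In the GTPase rows rapamycin 14 is the highest of the rapamycin hearts, and control 16 lies above it for Igtp, Irgm1 and Irgm2.

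The list held 4 sensors of foreign or misplaced nucleic acid, and none passed the test over all genes, although all 4 had an unadjusted p under 0.05. Dhx58 (Lgp2), an RNA helicase that regulates the other sensors of its family, had 4.95, 5.99 and 7.81 normalised CPM (lowest, median and highest) in rapamycin hearts, against 5.23, 8.39 and 10.2 in control hearts. All 10 rapamycin hearts lay below the control median and 6 controls lay above every rapamycin heart, but the groups overlapped. The log2 fold change of Dhx58 was -0.41 ± 0.13 (SE), with an adjusted p of 0.0713 by edgeR. Zbp1, a sensor of Z-form nucleic acid that can start cell death, had 3.12, 6.76 and 15.4 normalised CPM in rapamycin hearts, against 6.505, 11.7 and 21.8 in control hearts. Its log2 fold change was -0.86 ± 0.27 (edgeR adjusted p = 0.0790), and rapamycin 14, at the top of its group, lay above the control median.

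Ddx58, which encodes the RNA sensor RIG-I, had 22.3, 30.6 and 37.6 normalised CPM in rapamycin hearts, against 26.9, 37.7 and 47.9 in control hearts. All 10 rapamycin hearts were again below the control median, and its log2 fold change was -0.29 ± 0.10 (edgeR adjusted p = 0.111). Ifih1, which encodes MDA5, a sensor of long double-stranded RNA, had 17.97, 24.8 and 29.3 normalised CPM in rapamycin hearts, against 22.2, 28.8 and 34.3 in control hearts. It differed least of the 4, with a log2 fold change of -0.23 ± 0.10 (edgeR adjusted p = 0.206). Without control 19 the log2 fold changes were -0.37 for Dhx58, -0.82 for Zbp1, -0.27 for Ddx58 and -0.18 for Ifih1, with edgeR adjusted p between 0.0980 and 0.323.

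The 6 regulators had log2 fold changes between -0.41 and -0.20, and none passed the test over all genes. Irf1, a transcription factor of the gamma response, had 27.3, 34.1 and 48.6 normalised CPM (lowest, median and highest) in rapamycin hearts, against 33.7, 38.9 and 69.6 in control hearts. The highest control value was that of control 19, and 5 rapamycin hearts lay below every control. The log2 fold change of Irf1 was -0.32 ± 0.13 (edgeR adjusted p = 0.153) and -0.22 without control 19. Usp18, a protease that takes Isg15 off proteins and dampens the receptor, had 9.09, 11.95 and 17.8 normalised CPM in rapamycin hearts, against 10.4, 15.4 and 23.5 in control hearts. Its highest control was also control 19, and the log2 fold change was -0.34 ± 0.15 (edgeR adjusted p = 0.196), or -0.25 without that library.

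The 4 other regulators did not reach an unadjusted p under 0.05 in either comparison. Isg15, a ubiquitin-like protein joined to other proteins in the antiviral response, had a log2 fold change of -0.41 ± 0.22. Irf7, the factor that amplifies type I interferon production, had -0.34 ± 0.23. Irf9 and Stat2, which act in the type I complex, had -0.22 ± 0.11 and -0.20 ± 0.13. Their edgeR adjusted p lay between 0.253 and 0.3997.

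Mx1 was the effector that fell. Mx1, a dynamin-like GTPase that blocks influenza virus where the allele works, had 1.69, 3.17 and 4.54 normalised CPM (lowest, median and highest) in rapamycin hearts, against 3.44, 6.43 and 10.2 in control hearts. All 10 rapamycin hearts lay below the control median, 5 lay below every control, and 6 controls lay above every rapamycin heart. The log2 fold change was -1.05 ± 0.23, a level 51.6% lower (edgeR adjusted p = 0.0215), and it was -1.02 without control 19 (adjusted p = 0.0208). The transcript was rare, with 921 reads over the 20 libraries. Mx2, its paralog, had a log2 fold change of -0.31 ± 0.18 (edgeR adjusted p = 0.304), and whether the 2 paralogs differ was not tested.

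**Figure D3:**
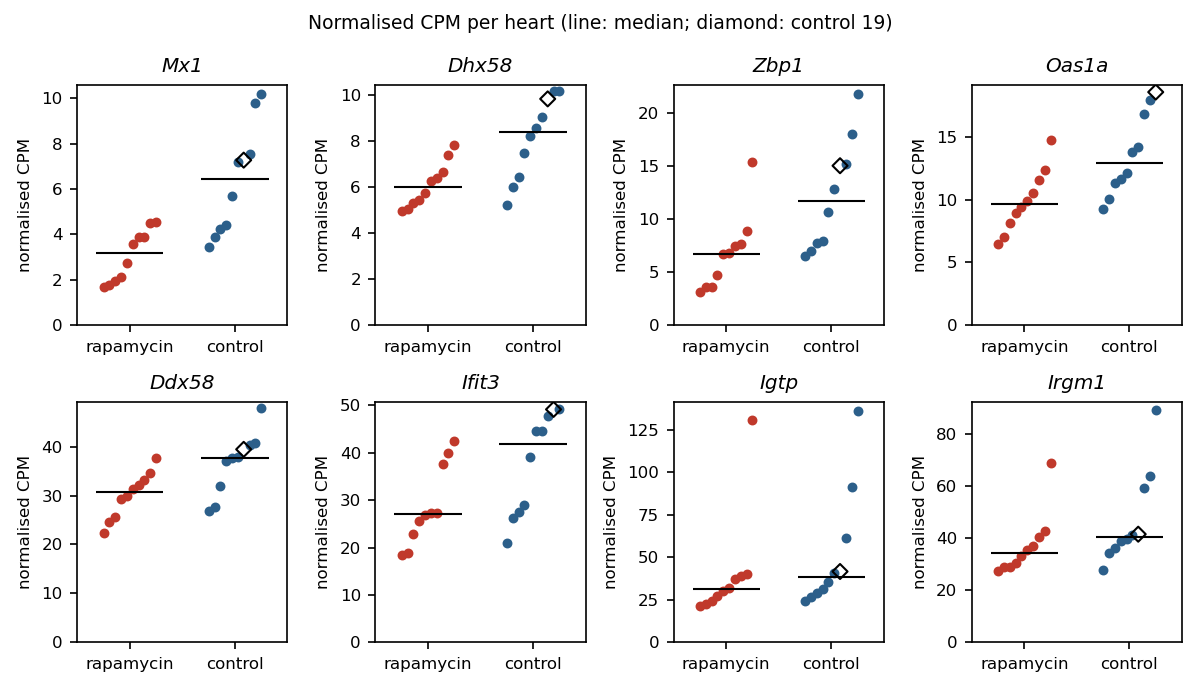
Normalised CPM of 8 of the genes in each heart, rapamycin left of control, with the median as a line and control 19 as an open diamond. Mx1 medians are 3.17 in rapamycin hearts and 6.43 in control hearts, and 1 rapamycin heart stands high for Igtp and Irgm1.

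The oligoadenylate synthetases make a messenger that switches on RNase L, which cuts RNA. Oas1a had 6.49, 9.64 and 14.7 normalised CPM (lowest, median and highest) in rapamycin hearts, against 9.29, 12.9 and 18.6 in control hearts. Of the 10 rapamycin hearts 9 lay below the control median, and the log2 fold change was -0.46 ± 0.15 (edgeR adjusted p = 0.0868). Oas3 had 0.998, 1.55 and 4.25 normalised CPM in rapamycin hearts, against 1.45, 3.22 and 12.9 in control hearts. Its log2 fold change of -1.01 ± 0.37 (edgeR adjusted p = 0.115) leaned on control 19, the highest library, and was -0.62 ± 0.28 without it (adjusted p = 0.227). Oas2, its neighbour on chromosome 5, had -0.21 ± 0.14.

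The OAS-like genes lack or differ in that enzyme activity, and Oasl1 holds back Irf7 translation in mice. Oasl1 had 1.80, 3.09 and 5.47 normalised CPM (lowest, median and highest) in rapamycin hearts, against 2.82, 4.97 and 6.67 in control hearts. Its neighbour Oasl2 had 24.1, 32.6 and 48.96 in rapamycin hearts, against 31.7, 44.5 and 58.0 in control hearts. Their log2 fold changes were -0.54 ± 0.20 for Oasl1 (edgeR adjusted p = 0.118) and -0.36 ± 0.15 for Oasl2 (adjusted p = 0.175). The groups overlapped for both. Without control 19 the log2 fold changes were -0.39 for Oas1a, -0.53 for Oasl1 and -0.31 for Oasl2, with edgeR adjusted p between 0.130 and 0.266. Oas1a has close relatives in the same cluster of genes, and reads that fit more than 1 copy may have been lost, so its level is uncertain.

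Ifit proteins bind viral RNA and hold back its translation. Ifit3 had 18.3, 27.1 and 42.5 normalised CPM (lowest, median and highest) in rapamycin hearts, against 21.0, 41.9 and 49.2 in control hearts, and 9 of 10 rapamycin hearts lay below the control median. Its log2 fold change was -0.40 ± 0.18 (edgeR adjusted p = 0.196), or -0.35 without control 19 (adjusted p = 0.290). For Ifit1 and Ifit2 it was -0.35 ± 0.18 and -0.21 ± 0.15, neither with an unadjusted p under 0.05. These are also close relatives whose reads can be shared.

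Ifitm3, a membrane protein that stops viruses from fusing in endosomes, was the gene with the highest level per length on the list. It had 81.6, 102.6 and 123.2 normalised CPM (lowest, median and highest) in rapamycin hearts, against 97.0, 115.8 and 169.8 in control hearts, the last being control 19. The log2 fold change of Ifitm3 was -0.29 ± 0.11 (edgeR adjusted p = 0.120) and -0.22 ± 0.10 without control 19 (adjusted p = 0.196). Ifi35, a small leucine-zipper protein, had 12.7, 15.5 and 21.1 normalised CPM in rapamycin hearts, against 12.03, 19.004 and 25.4 in control hearts. The highest control was control 19 here too, and the log2 fold change was -0.27 ± 0.10 (edgeR adjusted p = 0.140), or -0.21 without that library. Eif2ak2, the kinase PKR that stops translation on double-stranded RNA, passed an unadjusted p under 0.05 only without control 19. It had 24.6, 27.1 and 32.1 normalised CPM in rapamycin hearts, against 22.3, 32.8 and 37.9 in control hearts, and all 10 rapamycin hearts lay below the control median. Its log2 fold change was -0.17 ± 0.08 (edgeR adjusted p = 0.243), or -0.19 without control 19 (adjusted p = 0.204).

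Among the 11 effectors without an unadjusted p under 0.05 in either comparison, 10 had log2 fold changes between -0.35 and -0.12. Besides Mx2, Ifit1, Ifit2 and Oas2 these were Ifi44, Bst2 (tetherin, which holds budding virus on the cell), Rtp4, Rsad2, Parp14 (a mono-ADP-ribosyltransferase) and Xaf1 (a pro-apoptotic protein), and their edgeR adjusted p lay between 0.269 and 0.578. Cmpk2, a mitochondrial nucleotide kinase, was the 1 gene above 0 (-0.05 with library totals and no scaling factor, when all 36 lay below 0). It had 12.7, 16.9 and 27.7 normalised CPM (lowest, median and highest) in rapamycin hearts, against 9.84, 16.7 and 21.9 in control hearts, with a log2 fold change of 0.08 ± 0.15. Rsad2 (viperin, an antiviral enzyme) is its neighbour on chromosome 12 and is known to be induced together with it, yet had -0.20 ± 0.17 here. Neither had an unadjusted p under 0.05.

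**Figure D4:**
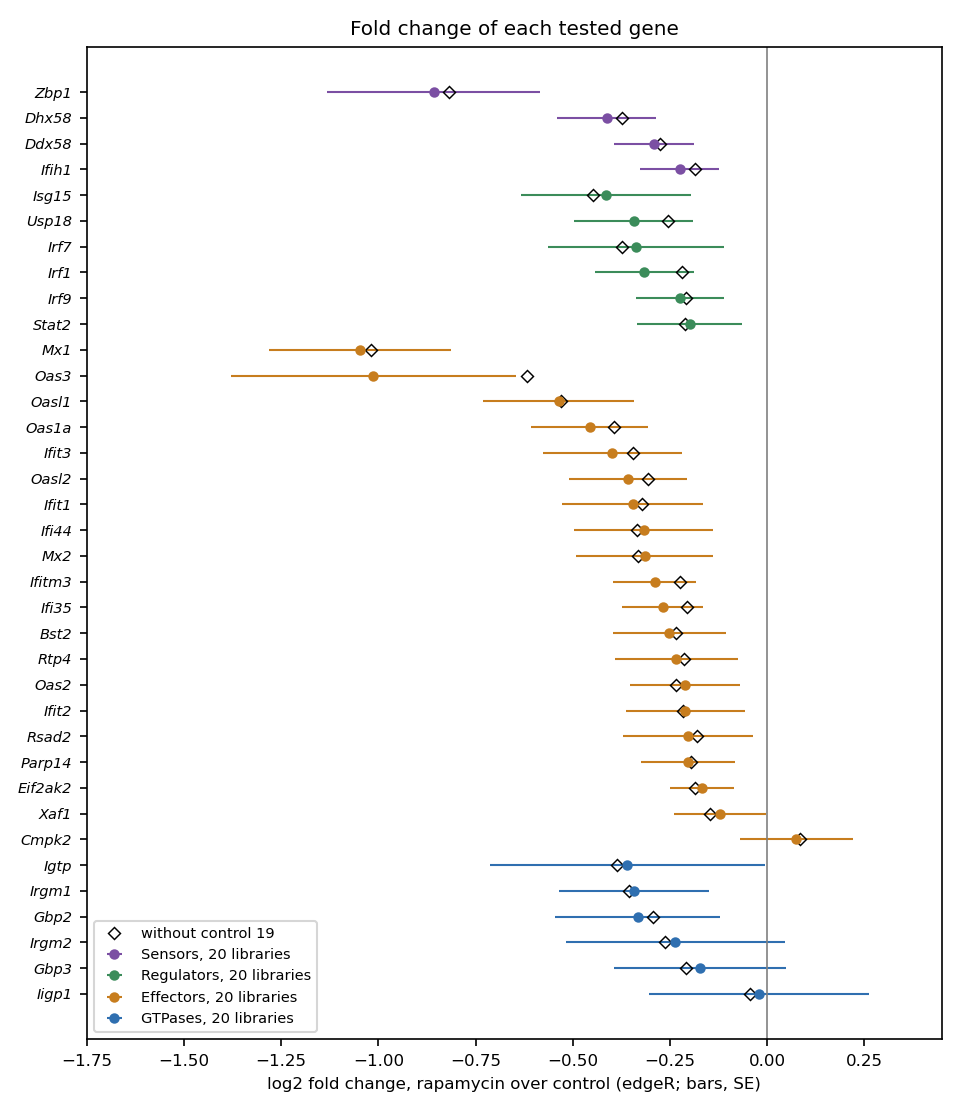
The log2 fold change of rapamycin over control for each of the 36 genes, by role, with SE bars from edgeR over 20 libraries and open diamonds for values without control 19. All points lie below 0 except that of Cmpk2 at 0.08 (-0.05 with no scaling factor), and Oas3 moves most without control 19, with -1.01 and -0.62.

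None of the 6 interferon gamma GTPases passed the test in either comparison, and for none was the unadjusted p under 0.05. These large GTPases and immunity-related GTPases gather on vacuoles that hold bacteria or parasites. Gbp2 had 30.4, 43.0 and 105.0 normalised CPM (lowest, median and highest) in rapamycin hearts, against 37.0, 56.4 and 101.0 in control hearts, with a log2 fold change of -0.33 ± 0.21 (edgeR adjusted p = 0.372). For Gbp3 the values were 24.7, 40.4 and 101.4 in rapamycin hearts, against 28.5, 48.4 and 73.6 in control hearts, with a log2 fold change of -0.17 ± 0.22. In both genes the highest rapamycin heart was rapamycin 14, and the highest control was control 11.

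The immunity-related GTPases spread further. Igtp (Irgm3) had 21.4, 31.2 and 130.6 normalised CPM (lowest, median and highest) in rapamycin hearts, against 24.2, 38.2 and 135.9 in control hearts. Irgm1, a regulator of the family that also bears on autophagy, had 27.4, 34.2 and 68.7 in rapamycin hearts, against 27.9, 40.5 and 89.2 in control hearts. Irgm2 had 28.5, 40.9 and 126.1 in rapamycin hearts, against 30.8, 46.2 and 126.6 in control hearts. The top of each range was 1 heart, rapamycin 14 in the rapamycin group and control 16 in the control group. The log2 fold changes were -0.36 ± 0.35 for Igtp, -0.34 ± 0.19 for Irgm1 and -0.24 ± 0.28 for Irgm2, with edgeR adjusted p between 0.309 and 0.664. Iigp1, an effector of the family, had 66.0, 106.0 and 292.5 normalised CPM in rapamycin hearts, against 54.3, 97.6 and 272.5 in control hearts, with a log2 fold change of -0.02 ± 0.28 (edgeR adjusted p = 0.977). Without control 19 the 6 log2 fold changes lay between -0.39 and -0.04, with edgeR adjusted p between 0.340 and 0.959. The GBP genes are a family of close relatives, and reads that fit more than 1 of them may have been lost to unique mapping.

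Spread between hearts of a group was larger for the GTPases than for the antiviral genes, in the rapamycin group through 1 heart. The median within-group SD on the log2 scale was 0.558 in rapamycin hearts and 0.566 in control hearts for the GTPases. For the antiviral genes it was 0.341 in rapamycin hearts and 0.342 in control hearts, and for all genes tested 0.172 in rapamycin hearts and 0.231 in control hearts. Without rapamycin 14 the rapamycin value was 0.329 for the GTPases and 0.334 for the antiviral genes. Without control 16 the control value was 0.495 for the GTPases and 0.332 for the antiviral genes. The median GTPase log2 fold change depended on single hearts. It was -0.28 with all 20 libraries, -0.49 without rapamycin 14, -0.09 without control 16 and -0.18 without control 11. Without rapamycin 14, 5 of the 6 GTPases had an unadjusted p under 0.05 and 0 an adjusted one. The median antiviral log2 fold change stayed between -0.34 and -0.24 over the same 20 fits with 1 library left out. Its count at an unadjusted p under 0.05 was 10 to 23 of 30, the highest without rapamycin 8. The share of all genes lower at that p was taken only with all 20 libraries (13.5%) and without control 19 (10.5%). The GTPase and antiviral counts of the other fits thus have no background beside them.

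The level of a whole group of genes in a heart was taken as the mean of log2(normalised CPM + 1). For the antiviral genes it was 4.21 ± 0.305 in rapamycin hearts and 4.52 ± 0.267 in control hearts (SD, n = 10 each), and for the GTPases 5.61 ± 0.540 in rapamycin hearts and 5.84 ± 0.565 in control hearts. Antiviral levels in rapamycin hearts ran between 3.82 (rapamycin 18) and 4.67 (rapamycin 8), and in control hearts between 4.16 (control 1) and 4.77 (control 13). A few rapamycin hearts carried most of the low end: rapamycin 18 was the lowest of all 20 libraries in 13 of the 36 genes, rapamycin 15 in 8 and rapamycin 6 in 7. Rapamycin 8 and 14 instead stood above the control mean in 26 and 27 genes. The controls were split too, since controls 1, 7 and 10 stood above the control mean in 3, 2 and 1 genes and controls 2, 11 and 16 in 34, 33 and 32. The 2 groups of genes did not always go together, as control 13 had the highest antiviral level of all hearts and a GTPase level of 5.51, below the control mean.

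**Figure D5:**
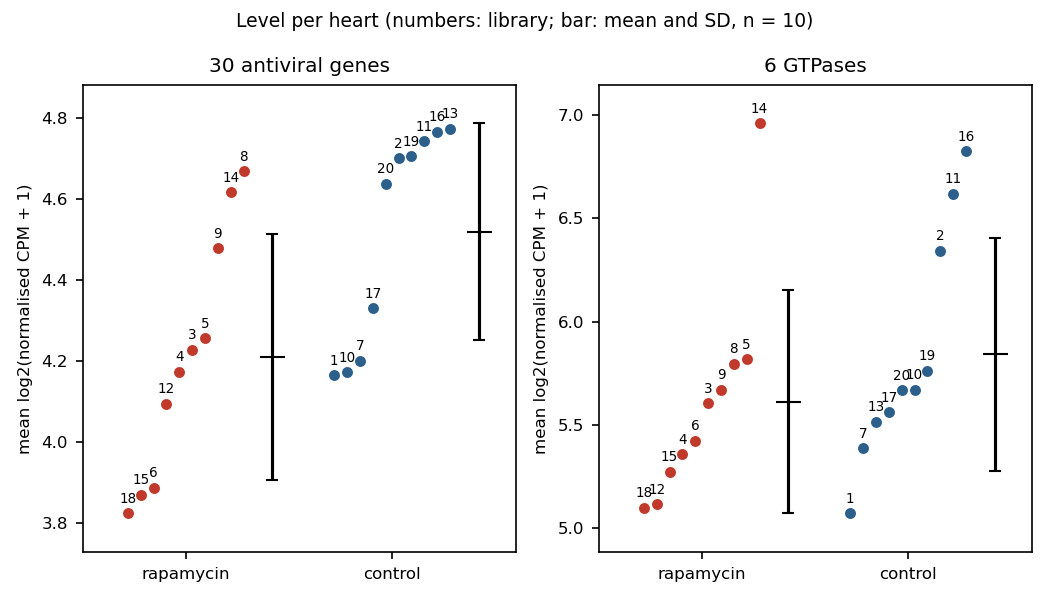
Mean log2(normalised CPM + 1) per heart of the 30 antiviral genes (left) and the 6 GTPases (right), rapamycin left of control, with library numbers beside the points and the mean and SD as a bar (n = 10 each). Rapamycin 14 is the highest of the 20 hearts for the GTPases at 6.96, and 3.82 to 4.67 in rapamycin hearts overlaps 4.16 to 4.77 in control hearts for the antiviral genes.

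Levels differed by more between genes than between diets. Per kilobase of exon, Ifitm3 had a median of 151.4 normalised CPM in rapamycin hearts and 170.8 in control hearts. Bst2 followed with 40.7 in rapamycin hearts and 54.1 in control hearts. The GTPases Gbp2, Igtp, Iigp1 and Gbp3 ranked 4 to 7 of the 36 genes in control hearts, Gbp2 with 17.1 in rapamycin hearts and 22.4 in control hearts. The 3 lowest were Oas3, Mx2 and Mx1, with 0.219, 0.942 and 0.838 in rapamycin hearts, against 0.456, 1.22 and 1.70 in control hearts. The gene that fell was thus among the rarest of the list, and where a gene is rare its count is less precise.

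The interferon transcripts examined, those of Ifna1, Ifna2, Ifna4, Ifnb1 and Ifng, were near or at 0. Other interferon genes were not examined here. Ifna1 and Ifna4 had 0 reads in 195230659, which allows a level of up to 0.0154 CPM over all libraries (3 counts, counting error only). Ifna2 and Ifnb1 had 1 read each, in rapamycin libraries. Ifng, the gene of interferon gamma, had 1 read in the rapamycin libraries and 24 reads in 6 control libraries, of which control 2 had 9 and control 19 had 8. Its mean was 0.00995 ± 0.0315 CPM in rapamycin hearts and 0.277 ± 0.399 CPM in control hearts (SD, n = 10 each; 2-sided permutation test, p = 0.0185). Reads were present in 1 of 10 rapamycin and 6 of 10 control libraries. Without control 19 or without control 2 the exact permutation p was 0.0372 in each case. This single gene was tested apart from the fit over all genes, since its counts did not pass the filter. The test was not planned but added after the data were seen, and its p values are not adjusted for the choice of gene.

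The 6 tested receptor genes gave no call. The smallest p was that of Il10rb, the chain shared by interferon lambda and interleukin 10 receptors, with a log2 fold change of 0.17 ± 0.07 (edgeR adjusted p = 0.165). Ifnar1 and Ifnar2 had -0.12 and -0.10, and Ifngr1 and Ifngr2 had -0.18 and 0.17. Of 7 transducers, 0 passed, and all 7 had values below 0. Socs3, a feedback inhibitor of Jak kinases, had the smallest p, with a log2 fold change of -0.87 ± 0.26 (edgeR adjusted p = 0.0690), or -0.56 without control 19 (adjusted p = 0.0952), and control 19 was its highest library.

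Upstream of the interferons, 2 of 15 genes of nucleic acid sensing fell and 0 rose, against the 2.68% and 0.689% of all genes. This list was chosen with earlier results of these data known, so its counts beside those shares are description and no test. Tlr7, the endosomal receptor for single-stranded RNA, had 4.54, 5.85 and 9.75 normalised CPM (lowest, median and highest) in rapamycin hearts, against 8.43, 11.9 and 22.8 in control hearts. Its log2 fold change was -1.09 ± 0.17 (edgeR adjusted p = 0.00400), or -0.96 without control 19, the highest library (adjusted p = 0.00222). Ikbke, a kinase that activates Irf3 and Irf7, had 4.11, 6.12 and 7.81 normalised CPM in rapamycin hearts, against 4.92, 11.5 and 15.4 in control hearts, with a log2 fold change of -0.87 ± 0.17 (edgeR adjusted p = 0.0111), or -0.82 without control 19 (adjusted p = 0.0106). All 10 rapamycin hearts lay below the control median for both genes. The close relative of Ikbke, Tbk1, had -0.12 ± 0.07.

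Of 18 other interferon-induced genes 2 fell and 0 rose, and 1 fell without control 19. The share of all genes tested that fell was 2.68%, or 2.33% without control 19. Whether the counts of this list exceed that share was not tested. Epsti1, known from the contact of epithelial and stromal cells, had 2.92, 4.16 and 9.07 normalised CPM (lowest, median and highest) in rapamycin hearts, against 4.02, 7.91 and 17.8 in control hearts. Its log2 fold change was -0.97 ± 0.24 (edgeR adjusted p = 0.0282), or -0.88 without control 19 (adjusted p = 0.0373). Trim30a, a negative regulator of Toll-like receptor signalling listed as Trim30, had a log2 fold change of -0.51 ± 0.14 (edgeR adjusted p = 0.0407), and its adjusted p without control 19 was 0.0508. Of 10 tested GTPases outside the list 0 passed, all 10 had values below 0, and Gbp8 had the smallest p, with a log2 fold change of -1.05 ± 0.32 (adjusted p = 0.0692). The medians of these lists were -0.22 for nucleic acid sensing, -0.26 for the other induced genes and -0.31 for the other GTPases, beside -0.01 for all genes tested.

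Some markers of macrophages and of T and NK cells fell as well. Over all genes tested, 2.68% fell and 0.689% rose, and 2.33% fell without control 19. The marker lists were chosen with earlier results of these data known. Of 14 macrophage markers 9 fell and 0 rose (10 fell without control 19), and their summed level was 553 to 1062 normalised CPM in rapamycin hearts and 776 to 3685 in control hearts, or 776 to 1546 without control 19. Without Lyz2 the sum was 371 to 659 in rapamycin hearts and 488 to 1071 in control hearts. None of the 14 was at 0 in any library. Of 10 T and NK cell markers 6 were tested and 2 fell, the adhesion receptor Cd2 and the granule protein Nkg7 (Cd2 alone without control 19), with a summed level of 4.94 to 29.6 normalised CPM in rapamycin hearts and 13.5 to 68.6 in control hearts. Ncr1, an NK cell receptor, was at 0 in 2 rapamycin and 3 control libraries. Of the 5 plasmacytoid dendritic cell markers 2 were tested and 0 called, both with values above 0, and the defining Siglech had 22 reads in rapamycin libraries and 34 in control libraries, with 2 rapamycin libraries at 0. The summed level of that list was 624 to 1202 normalised CPM in rapamycin hearts and 295 to 1060 in control hearts. Without control 19 the control range was 712 to 1060. This sum came almost wholly from Cox6a2, which heart muscle itself expresses. In RNA of a whole heart, fewer cells of a type and less RNA per cell cannot be told apart, and the part of these cells in the levels of the interferon-stimulated genes was not tested.

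Endothelial and fibroblast markers gave 0 calls of 6 and 0 of 5 in both comparisons, with summed levels of 862 to 1096 and 857 to 1696 normalised CPM in rapamycin hearts, against 892 to 1350 and 1028 to 1437 in control hearts. Without control 19 the control ranges were 892 to 1042 and 1028 to 1437. The 7 cardiomyocyte markers all had values above 0 and 0 were called, although the myosin light chain Myl2 rose without control 19 (log2 fold change 0.38, edgeR adjusted p = 0.0430). Their summed level was 39110 to 52259 normalised CPM in rapamycin hearts and 13358 to 47711 in control hearts. The lowest control was control 19, and without it the control range was 34071 to 47711. Within the rapamycin group the macrophage sum and the antiviral level were both low in some hearts and parted in others. Rapamycin 18 had 567 normalised CPM of macrophage markers and the lowest antiviral level (3.82), and rapamycin 15 had 627 and 3.87. Rapamycin 8 had the lowest macrophage sum of its group (553) and the highest antiviral level (4.67), and its T and NK cell sum of 29.6 was the highest there. That place depended on Lyz2: without it the lowest sums of the group were those of rapamycin 18 (371) and rapamycin 15 (373), and rapamycin 8 had 391. Rapamycin 5 had the highest macrophage sum of its group (1062) and an antiviral level of 4.26.

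The authors deposited, beside the counts, a table of CPM for 700 genes, and the name of that table marks them as differentially expressed genes. The sources used here name neither the test nor the threshold behind it. It held 3 of the 36 genes, Mx1, Dhx58 and Zbp1. By symbol 696 of the 700 matched the 34291 rows of counts, of which 13940 were tested here. The table also held 7 genes of the pathway lists. They were Ikbke, Irf5, Samhd1 and Tlr7 (of 15 genes of nucleic acid sensing), Epsti1 (of 18 other induced genes), Gbp8 (of 11 other GTPases) and Socs3 (of 7 transducers). Whether these counts exceed the share over all genes was not tested.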

How the data were processed

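Paired-end reads of 50 bp were obtained from the polyadenylated RNA of 20 hearts on an Illumina instrument, and mapped to unique sites of MGSCv37, per the series' design text. Per-gene raw counts were deposited by the authors, together with CPM for 700 genes, which equal counts over the column total within 0.001 CPM. The sources used here name no aligner, counter or strand setting, so reads of a gene and of an overlapping or antisense one are not separated. The submitters' processing notes name edgeR, with no version. The column of rapamycin 4 is 1 letter short of its title, and no other rapamycin title has that number.

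Counts were tested with edgeR 4.0.16 in R 4.3.3 (default filter by expression, TMM, quasi-likelihood F-test, rapamycin over control, no covariates), with Benjamini-Hochberg adjustment over all genes and a threshold of 0.05. The SE is the size of the log2 fold change divided by the root of F. Normalised CPM are CPM of the TMM-scaled library. The procedure was tested on simulated data. Of genes given a log2 change of 0.4, 54% were called, against 81.6% at 0.8, 94% at 1.2 and 100% at 2. Unchanged genes made up 5.26% of the calls. Changes smaller than 0.4, such as the medians of both groups of genes, were not simulated. Replicates are animals, since the design text gives 10 mice per group, and every pair of libraries within a group differed beyond sampling noise (chi-square per degree of freedom of at least 4.34 in 90 pairs). The members, pathway lists and marker lists were chosen with earlier results of these data known. Genes with an unadjusted p under 0.05 in either comparison were named with their values. Of the pathway lists, called genes were named, or else the 1 with the smallest p. Names beyond that rule (such as the receptors and Tbk1) were chosen after their values were seen. Exon lengths came from GENCODE M21 and promoters from RefSeq. DESeq2 1.42.0, other scalings and filters, and fits with libraries left out were alternatives.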

Additional observations from a re-analysis of the deposited data

Results flagged for a closer look

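Levels of 36 genes and of the means of both groups of genes were examined for a single heart far from the rest of its group, over 76 groups of 10 libraries, and 7 stood out. Chance alone gives about 1 in 20. The measure was the gap to the next heart divided by the range of the group on the log2(normalised CPM + 1) scale. Of the 7, 6 were GTPase levels in rapamycin 14. Its gap was 0.658 of the range for Igtp (130.6 normalised CPM, next heart 40.1), 0.605 for Irgm2 (126.1, next 51.5) and 0.523 for Irgm1 (68.7, next 42.6). The gap was 0.492 for Gbp2 (105.0, next 57.2) and 0.471 for Iigp1 (292.5, next 145.4). The mean of the 6 GTPases in that heart was 6.96, the next heart had 5.82, and the gap was 0.613. The other was Ifi35 in rapamycin 8 (21.1, next 16.2), with a gap of 0.528.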

How the results depend on the processing

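Mx1 fell under all 25 alternatives (adjusted p 0.00150 to 0.0473), and 0 GTPases were called under any. With 469 genes called over all genes, the count was 1332 with no scaling factor, 969 with DESeq2, 280 without the 4 libraries with lung transcripts and 335 with no filter, and 165 to 791 with 1 library left out. It moved by over 1.5 times without rapamycin 4 (166), 5 (791), 6 (192), 9 (266), 12 (179), 14 (302), 15 (231) or 18 (165), and without control 2 (280), 11 (290) or 17 (743). Antiviral calls were 8 with no scaling factor (Ddx58, Dhx58, Ifi35, Ifitm3, Oas1a, Oasl1 and Zbp1 joined Mx1) and 4 with DESeq2 (Dhx58, Oas1a and Zbp1 joined). They were 1 to 2 with 1 library left out, when Zbp1 joined without rapamycin 14, Dhx58 without control 1 or 17, and Ifi35 without control 10. These calls are out of 30 genes. Over all genes tested, 9.21% fell with no scaling factor, 4.64% with DESeq2 and 1.01% to 4.25% with 1 library left out, against 2.68% in the main fit. With no scaling factor the median of all genes lay at -0.13, that of the antiviral genes 0.30 below it and that of the GTPases 0.28 below it, and falls were 96.4% of all calls, against 79.5% with TMM and 66.8% with DESeq2. Without the 4 libraries with lung transcripts the antiviral median was -0.24 and 8 of 30 had an unadjusted p under 0.05. The share of all genes at that p was not taken in this fit. Cmpk2 turned to -0.053 with no scaling factor and ranged between -0.0125 and 0.126 with 1 library left out, and Iigp1 ranged between -0.25 and 0.18. The Ifng test (with all libraries and without control 19 or 2), the spread of the groups without 1 library and the macrophage sum without Lyz2 were examined after the data were seen. The median GTPase SD of rapamycin hearts was 0.329 to 0.591 with 1 library left out, the lowest without rapamycin 14. No paired analysis was possible because each library number occurs in 1 group.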

Other observations

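The hearts with the highest GTPase levels did not all hold Ifng reads. Rapamycin 14 had a GTPase level of 6.96 and 0 Ifng reads, which allows up to 0.352 CPM (3 counts, counting error only), and its T and NK cell marker sum was 12.4 normalised CPM. Control 16 had a GTPase level of 6.82 and 2 Ifng reads, and control 2 had 6.34 and 9 reads. Control 11 had 6.62 and 0 reads, which allows up to 0.328 CPM. The T and NK cell marker sums of controls 16, 2 and 11 were 30.8, 32.2 and 68.6 normalised CPM. Group medians of that sum were 21.5 in control hearts and 7.68 in rapamycin hearts. Control 19 had 8 Ifng reads, a GTPase level of 5.76 and a T and NK cell marker sum of 51.6 normalised CPM. The part of Ifng or of these cells in the GTPase levels was not tested.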
